A study of Mus musculus with 4 samples.

Results

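The data compared how CT26 tumours with opposite levels of IL-34 differed in their response to an anti-PD-1 antibody. CT26 is a colon carcinoma cell line of BALB/c mice. RNA-seq was performed on total RNA of 4 tumour groups: tumours of IL-34 overexpressing (OE) cells given anti-PD-1, untreated OE tumours, tumours of IL-34 deficient (KO) cells given anti-PD-1, and untreated KO tumours. All were grown on the BALB/c background, and each group had 1 library. For every gene, the change with anti-PD-1 was the treated minus the untreated level within a line, and the difference of responses was the OE change minus the KO change. A negative difference therefore marks a gene whose treated-minus-untreated change was lower in the OE line than in the KO line. Levels were taken as log2(FPKM + 1), where FPKM is the fragment number corrected for transcript length and library size, and all changes and differences below are on this log2 scale. Genes entered with FPKM of at least 1 in any of the 4 libraries, which held for 11871 of 23745 table rows. With 1 row per gene symbol and short RNAs left out, 11813 of 22499 symbols remained. The labels do not give the number of mice, the dose or the time of sampling, or say whether a line was a single clone, and they include no CT26 line with unaltered IL-34.

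IL-34 is a cytokine that binds the CSF-1 receptor, which sustains monocytes and macrophages. PD-1 is an inhibitory receptor of activated T cells, and its ligands PD-L1 and PD-L2 are carried by tumour and myeloid cells. Antibodies that block PD-1 can release T cells to secrete interferon-γ, which in turn induces antigen presentation genes and T cell attracting chemokines in neighbouring cells.

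Because no group had a replicate, none of the values below has an error or a test. A gene was counted where its difference was at least 1 in size, and "rose" or "fell" is used of changes of at least 1. FPKM sums were 518464 and 523753 in the treated and untreated OE libraries, and 488881 and 543926 in the treated and untreated KO libraries. Relative depth, read from the smallest steps of the FPKM values, was 89.7% and 94.9% in the OE libraries, 92.6% in the treated KO library and 100% in the untreated KO library, to which all were set. The treated KO library stood apart: its r with the rest, across genes, was 0.975 to 0.982, whereas the rest had r of 0.994 to 0.996 among themselves. Every difference contains that library, so no value can be given without it, and the changes of the OE line are printed beside those of the KO line throughout. Il34 was at 104 FPKM in treated and 104 FPKM in untreated OE tumours, against 3.02 FPKM in treated and 3.52 FPKM in untreated KO tumours. These levels went in the direction of the labels, and the difference of responses for Il34 was 0.17. Genes of colon epithelium were scarce in all 4 libraries, at summed FPKM of 3.08 and 3.71 in treated and untreated OE tumours and 6.88 and 10.8 in treated and untreated KO tumours, with 3 to 6 of 13 matched members at 0.

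The response to anti-PD-1 was larger in the KO line, where the changes of at least 1 were mostly upward. A rise of at least 1 was measured for 6 genes (0.0508%) in OE tumours and 174 genes (1.47%) in KO tumours, and a fall of at least 1 for 32 genes (0.271%) in OE tumours and 40 genes (0.339%) in KO tumours. Over all genes, the SD of the change was 0.18 in the OE line and 0.35 in the KO line, and its median was −0.002 in OE and −0.06 in KO. The difference of responses was at least 1 in size for 318 genes (2.69%), of which 257 (2.18%) were lower and 61 (0.516%) higher. Its median over all genes was 0.06, its SD 0.40, and it ranged from −4.85 in Oaz1-ps to 2.76 in Gm4070, both of which overlap other models. It was below 0 in 40.8% and above 0 in 59.2% of all genes. A change below 0 in OE and above 0 in KO tumours was measured in 18.5% of genes, and the opposite pair of signs in 27.4%. The FPKM minimum was reached through the treated KO library alone by 276 genes (2.34%), whose KO change was above 0 by that choice. Across the 11813 genes, the changes of the OE and KO lines correlated at r of −0.0737, which describes these libraries and carries no test. Just inside the lower bound lay Ogn at −1.0029 and just outside it Mrgprb1 at −0.9985, while Ier3 at 1.0010 lay just inside the upper bound and 1600029D21Rik at 0.9987 just outside.

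Among genes past the size rule, changes in 1 line only outnumbered opposite changes with a step of 0.5, but not with 0.25. A line was taken as up or down where its change was at least the step of 0.5 in size, and as flat otherwise. At that step, 87 genes (0.736%) were up and 122 (1.03%) down in OE tumours, and 843 (7.14%) were up and 322 (2.73%) down in KO tumours. Of the genes with a difference past the size rule, 175 (1.48% of all genes) were flat in OE and up in KO tumours, and 70 (0.593%) were down in OE and up in KO tumours. A further 35 (0.296%) were flat in OE and down in KO tumours, and 15 (0.127%) were up in OE and down in KO tumours. Changes in the OE line alone were rarer, with 11 genes (0.0931%) down and 5 genes (0.0423%) up there and flat in KO tumours. Both lines were down for 6 genes (0.0508%), and both were up for 1 gene (0.00847%), Clec3b, the gene of tetranectin.

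**Figure D1:**
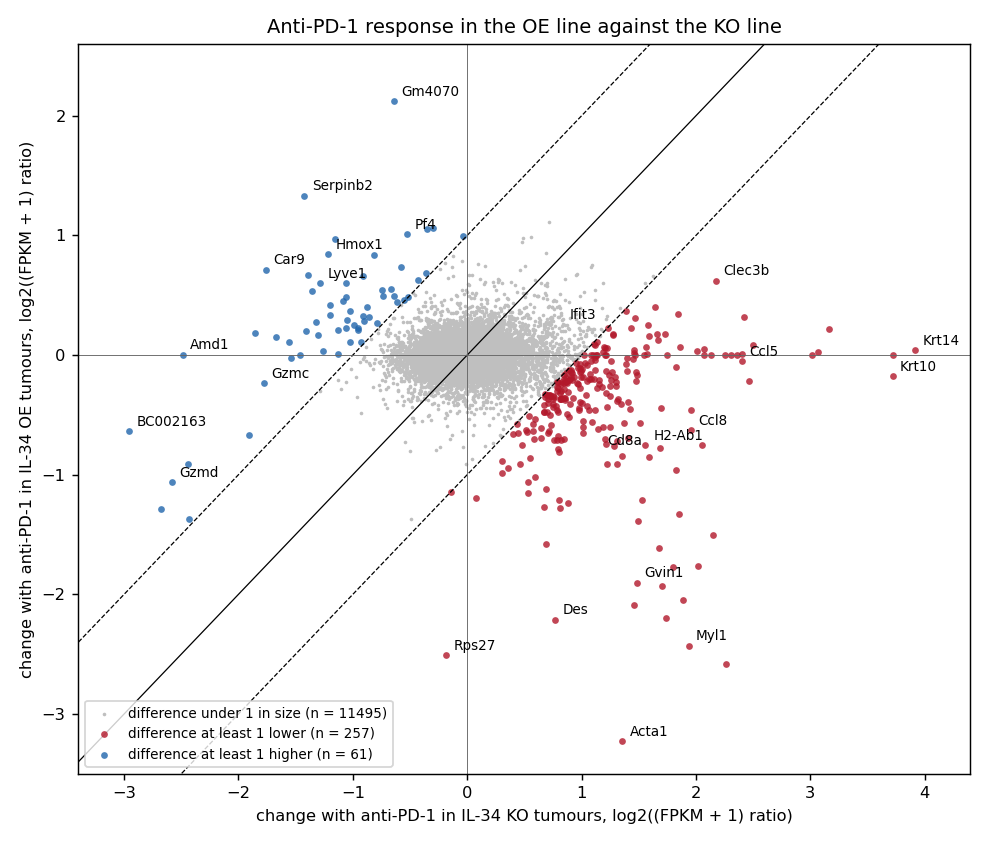
Change with anti-PD-1 in OE tumours (vertical axis) against KO tumours (horizontal axis), both as the log2 ratio of FPKM + 1, with 1 point per gene. The solid line marks equal responses and the dashed lines a difference of 1. The 257 lower genes (red) lie below the lower dashed line, mostly at positive KO changes, and the 61 higher genes (blue) above the upper one.

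Most differences were set by the treated KO library. Of the 257 lower genes, that library was the farthest from the other 3 in 217 (84.4%), always as the highest. In 200 of these the other 3 libraries lay within 1 of each other. The treated OE library was farthest, as the lowest, in 34 (13.2%). Of the 61 higher genes, the treated KO library was farthest, as the lowest, in 42 (68.9%), and the untreated KO library, as the highest, in 10 (16.4%). The same difference can be read as the OE minus KO gap in treated tumours less that gap in untreated tumours. For the lower genes the median gap was −1.41 with anti-PD-1 and −0.07 without it, and for the higher genes 1.08 with and −0.32 without. The gap in treated tumours was the larger part in 251 of 257 lower and 49 of 61 higher genes.

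**Figure D2:**
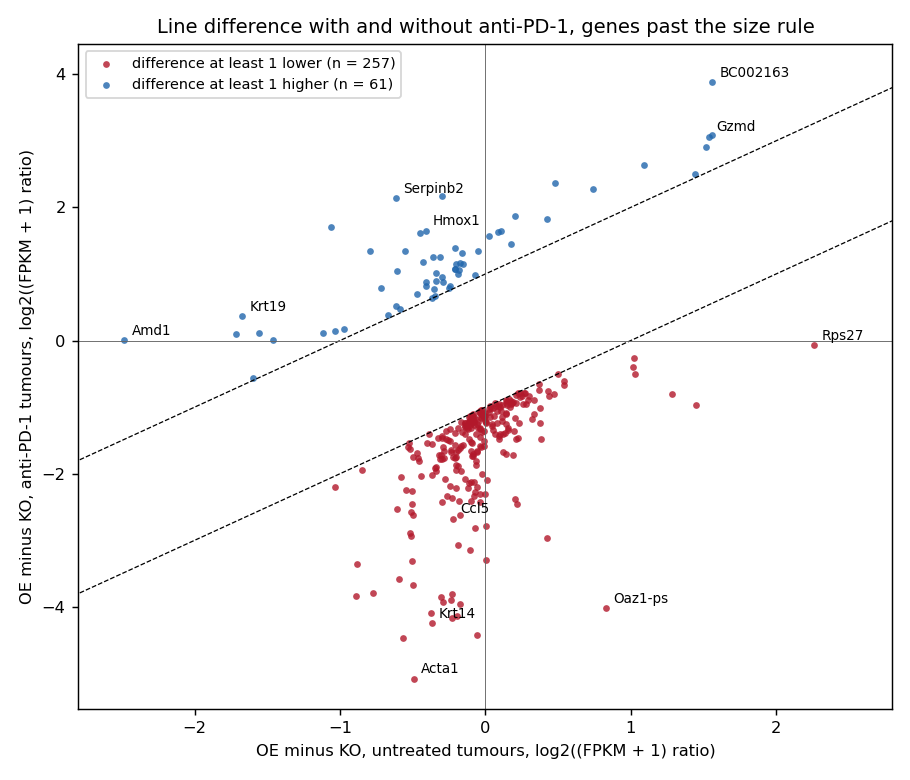
OE minus KO gap with anti-PD-1 (vertical axis) against the gap without it (horizontal axis), as log2 ratios of FPKM + 1, for the 318 genes past the size rule. Dashed lines mark a difference of responses of 1; lower genes (red) gather near 0 on the horizontal axis, at a median of −0.07, and spread along the vertical axis.

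Genes of MHC class II presentation, which display peptides to CD4 T cells, had opposite changes in the OE and KO lines. All 10 measured members had a change below 0 in OE and above 0 in KO tumours, as had 18.5% of all genes. Of the 10, 9 had a difference past −1, beside 2.18% of all genes. The member not past it, H2-Oa at −0.51, reached 1 FPKM in the treated KO library alone, so its sign followed from the minimum. The median change was −0.63 in OE and 1.17 in KO tumours, and the median difference was −1.73, beside 0.06 over all genes. No member rose or fell by 1 in the OE line, and 8 of 10 rose in the KO line. H2-Eb1, a class II β chain, was at 98.7 FPKM in treated and 179 FPKM in untreated OE tumours, and at 610 FPKM in treated and 202 FPKM in untreated KO tumours. The treated KO tumour was the highest of the 4 and the treated OE tumour the lowest, and the difference was −2.44. H2-Ab1, another β chain, was at 183 FPKM in treated and 310 FPKM in untreated OE tumours, and at 976 FPKM in treated and 332 FPKM in untreated KO tumours, a difference of −2.31. The α chain gene H2-Aa, at −2.20, and the invariant chain gene Cd74, at −2.10, showed the same order of libraries. H2-DMa, H2-DMb1 and H2-DMb2, whose products load peptides, differed by −1.26, −1.67 and −1.79. Ciita, the coactivator that switches on class II genes, was picked after its values were seen and was at 3.61 FPKM in treated and 4.31 FPKM in untreated OE tumours, and at 10.9 FPKM in treated and 4.35 FPKM in untreated KO tumours, a difference of −1.35. In bulk tumour RNA, fewer cells of a type and less RNA per cell cannot be told apart.

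Of the class II list, 7 members had an entry in the RefSeq promoter table (GRCm38.p6), which spans 250 bases before to 50 bases after the gene start. A CCAAT box, the letters CCAAT on either strand, was present in 6 of these 7 windows (85.7%) and in 39.1% of the windows of all 8462 genes with an entry. The H2-DMa window lies 10153 bases from the start of the deposited gene model. Among windows within 500 bases of the model's start, the box was in 5 of 6 class II windows (83.3%) and 39.3% of all. In class II promoters a CCAAT-like Y box is known to bind the factor NF-Y. The windows of H2-Eb1 (chr17:34305617-34305916, plus strand) and H2-Aa (chr17:34287774-34288073, minus strand) are shown because these genes were among the class II genes with the lowest differences. CCAAT, or its reverse complement, is in capitals.
H2-Eb1: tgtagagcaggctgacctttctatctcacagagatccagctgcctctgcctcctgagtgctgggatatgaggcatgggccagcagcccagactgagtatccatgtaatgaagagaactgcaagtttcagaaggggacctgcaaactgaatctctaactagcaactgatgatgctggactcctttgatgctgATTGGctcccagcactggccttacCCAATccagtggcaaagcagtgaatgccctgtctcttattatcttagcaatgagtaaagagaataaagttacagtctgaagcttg
H2-Aa: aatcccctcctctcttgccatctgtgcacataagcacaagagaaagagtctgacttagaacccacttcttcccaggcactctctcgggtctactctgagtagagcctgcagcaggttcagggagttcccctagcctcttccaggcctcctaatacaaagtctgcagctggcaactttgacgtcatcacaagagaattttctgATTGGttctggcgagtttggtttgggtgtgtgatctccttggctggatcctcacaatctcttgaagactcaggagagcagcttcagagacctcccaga
The matches of H2-Eb1 began at −59 and −35 from the gene start and the match of H2-Aa at −48. A match of letters describes the window and does not show that a factor was bound. All windows here and below are sequence of the reference build, and the BALB/c sequence was not examined.

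T cell genes were higher with anti-PD-1 in KO tumours and little changed or lower in OE tumours. Cd8a, the coreceptor of cytotoxic T cells, was at 3.42 FPKM in treated and 5.77 FPKM in untreated OE tumours, and at 20.2 FPKM in treated and 8.61 FPKM in untreated KO tumours. Its change was −0.62 in OE and 1.14 in KO tumours, a difference of −1.76. Cd8b1 differed by −1.59 and Cd4 by −1.03, so all 3 members of the CD4 and CD8 list were past the size rule. With a pseudocount of 5 in place of 1, Cd4 was at −0.51 and no longer past it. Cd3e, a signalling chain of the T cell receptor, was at 6.25 FPKM in treated and 9.69 FPKM in untreated OE tumours, and at 28.5 FPKM in treated and 12.8 FPKM in untreated KO tumours, a difference of −1.66. Of the pan-T cell list, 13 of 14 genes were measured. All 13 differences were below 0, beside 40.8% of all genes, and 6 were past −1, beside 2.18%. The list median was −0.97, or −0.64 with a pseudocount of 5, with a median change of −0.14 in OE and 0.78 in KO tumours. Natural killer cell genes had a median difference of −0.76 with 3 of 9 past −1, beside 2.18% of all genes. The receptor genes Klrc1 at −1.57 and Klrd1 at −1.51 were among the 3. Of the 9, Klrb1c reached 1 FPKM in the treated KO library alone, and the median of the other 8 was −0.87. B and plasma cell genes were near the floor, with 2 of 12 reaching 1 FPKM.

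Inhibitory receptors and ligands of the PD-1 axis went the same way. Pdcd1, which encodes PD-1, was at 3.68 FPKM in treated and 4.92 FPKM in untreated OE tumours, and at 13.1 FPKM in treated and 7.56 FPKM in untreated KO tumours, a difference of −1.06. Lag3, a receptor that binds class II, differed by −1.79, Havcr2, which encodes TIM-3, by −1.38 and Ctla4 by −1.11. These were the 4 of 8 measured inhibitory receptor genes past −1, beside 2.18% of all genes. All 8 had a change below 0 in OE and above 0 in KO tumours, as had 18.5% of all genes. Of the 8, Cd160, at −0.62, reached 1 FPKM in the treated KO library alone. With a pseudocount of 5, Pdcd1 at −0.72 and Ctla4 at −0.48 did not reach the rule. Pdcd1lg2, the gene of PD-L2, was at 1.0 FPKM in treated and 1.72 FPKM in untreated OE tumours, and at 8.18 FPKM in treated and 1.84 FPKM in untreated KO tumours, a difference of −2.14. Cd274, the gene of PD-L1, was above its untreated level in both lines, at 26.9 against 21.0 FPKM in OE tumours and 46.8 against 22.8 FPKM in KO tumours, and its difference of −0.66 did not reach the size rule. Regulatory T cell genes had a median difference of −0.47, with 0 of 7 past the rule, but that median was 0.17 with a minimum of 5 FPKM, so no direction is given for the list.

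Cytotoxic effector genes were divided. Nkg7, a granule membrane protein, was at 21.4 FPKM in treated and 25.1 FPKM in untreated OE tumours, and at 74.3 FPKM in treated and 29.6 FPKM in untreated KO tumours, a difference of −1.53. The granzymes C to G, serine proteases of killer cell granules, differed in the other direction, with lower levels under anti-PD-1 in both lines and the larger change in KO tumours. Gzmd was at 64.3 FPKM in treated and 136 FPKM in untreated OE tumours, and at 6.83 FPKM in treated and 46.0 FPKM in untreated KO tumours. With a pseudocount of 5, 3 of the 5 genes did not reach the rule. The 5 genes are related, and the division of fragments among them was not checked. Their summed FPKM was 301 in treated and 596 in untreated OE tumours, and 39.6 in treated and 220 in untreated KO tumours. The summed change was −0.98 in OE and −2.44 in KO tumours, a difference of 1.46. The list as a whole had a median difference of −0.30 and a mean of 0.04, with 2 members past −1 and 5 past 1 of 14. Among all genes, 2.18% were past −1 and 0.516% past 1.

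Ifng, the gene of interferon-γ, and 3 of 8 T cell attracting chemokines rose in the KO line, and none of them in the OE line. Ifng was at 3.16 FPKM in treated and 2.70 FPKM in untreated OE tumours, and at 11.8 FPKM in treated and 4.30 FPKM in untreated KO tumours, a difference of −1.11, which a pseudocount of 5 brought to −0.77. Ccl5, a chemokine for T cells and monocytes, was at 34.1 FPKM in treated and 35.4 FPKM in untreated OE tumours, and at 223 FPKM in treated and 41.5 FPKM in untreated KO tumours. The treated KO tumour alone was high, and the difference was −2.45. Cxcl9 differed by −1.26, and the 8 T cell attracting chemokines had a median of −0.82, with 2 past −1, beside 2.18% of all genes. Cxcl11, picked after its values were seen, had changes of 0.51 in OE and 0.58 in KO tumours. The interferon-γ response list was below 0 in 21 of 22 genes, beside 40.8% of all genes, with a median of −0.59, but Cxcl9 alone passed −1. MHC class I genes were below 0 in all 15 measured, beside the same 40.8%, with a median of −0.53 and 0 past the rule. The type I interferon list had median changes of the same sign, 0.38 in OE and 0.63 in KO tumours, and its median difference was −0.22 with 0 of 22 past the rule. Ifit3, an antiviral protein gene, was at 29.9 FPKM in treated and 24.8 FPKM in untreated OE tumours, and at 45.5 FPKM in treated and 25.1 FPKM in untreated KO tumours.

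**Figure D3:**
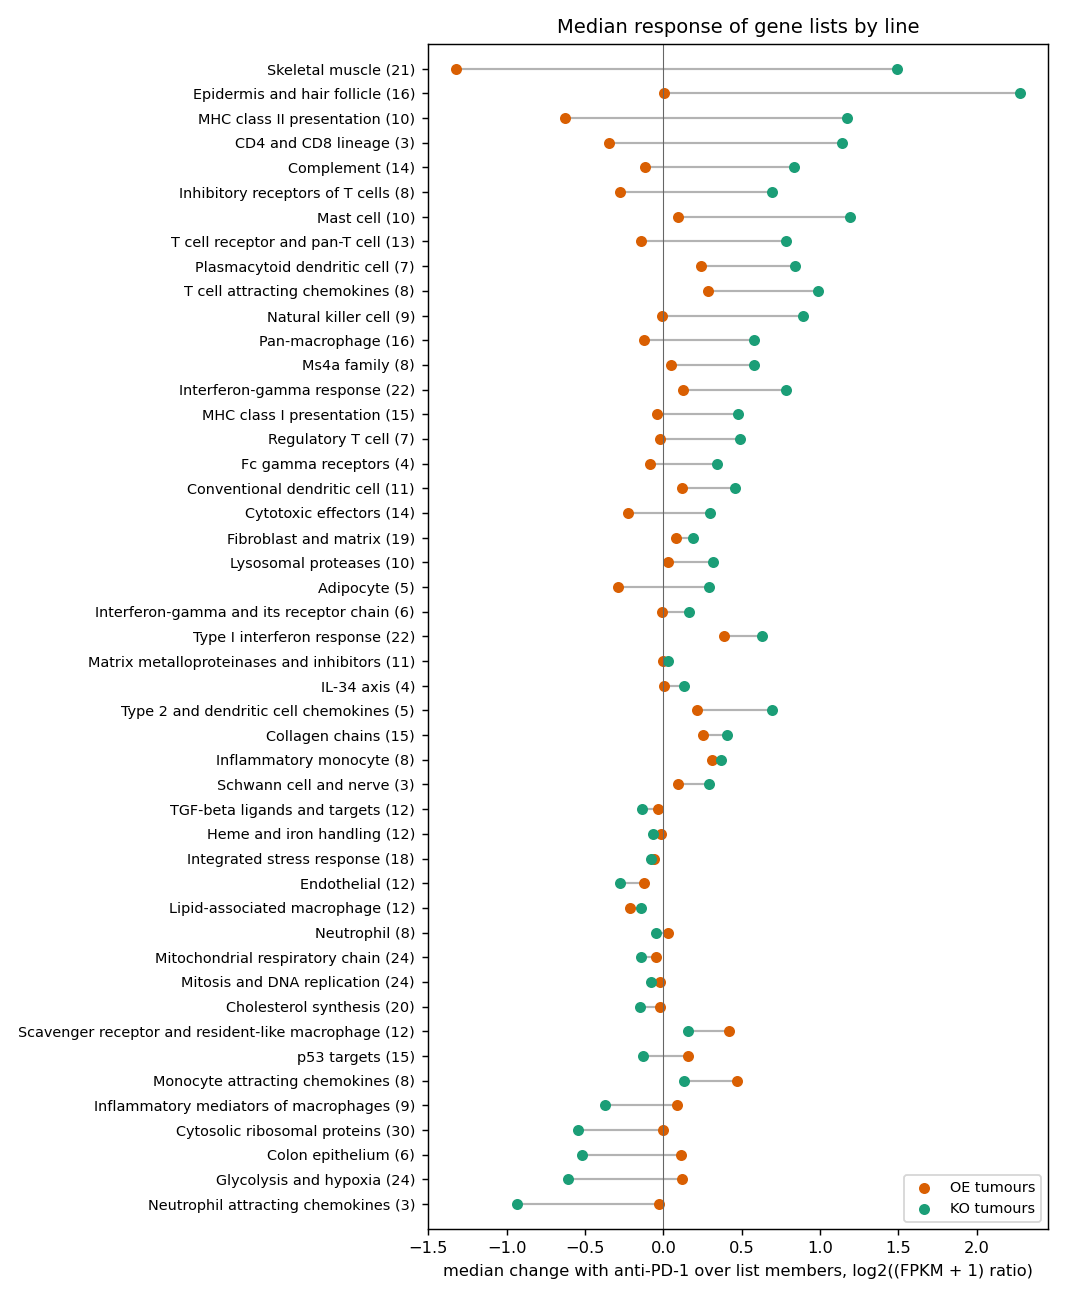
Median change with anti-PD-1 in OE (orange) and KO (green) tumours, as log2 ratios of FPKM + 1, for the gene lists with at least 3 measured members, ordered from the lowest difference at the top to the highest at the bottom, with the number of measured members in brackets. MHC class II genes lie at −0.63 in OE and 1.17 in KO tumours, and glycolysis and hypoxia genes at 0.12 in OE and −0.61 in KO tumours.

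Macrophage genes did not move as 1 block. Pan-macrophage genes had a median change of −0.12 in OE and 0.58 in KO tumours, with 3 of 16 past −1, beside 2.18% of all genes. Emr1, which encodes F4/80, was at 35.4 FPKM in treated and 38.6 FPKM in untreated OE tumours, and at 79.2 FPKM in treated and 38.9 FPKM in untreated KO tumours, a difference of −1.13. Csf1r, the IL-34 receptor, was at 70.4 FPKM in treated and 79.7 FPKM in untreated OE tumours, and at 118 FPKM in treated and 78.3 FPKM in untreated KO tumours, and its difference of −0.76 did not reach the rule. Apoe, a lipid carrier of macrophages, was at 587 FPKM in treated and 956 FPKM in untreated OE tumours, and at 1928 FPKM in treated and 836 FPKM in untreated KO tumours, a difference of −1.91. The lipid-associated macrophage list that holds Apoe did not follow it: 7 of its 12 differences were above 0 and 3 were past −1, and its median was 0.08, or −0.06 after rescaling to TPM, and its mean −0.30. Cd163, a haemoglobin scavenger receptor, and Timd4, a receptor for dying cells that was picked after its values were seen, differed by −1.20 and −1.17. Cd163 was at −0.80 with a pseudocount of 5. Other genes of resident-like macrophages differed the other way. Lyve1, a hyaluronan receptor, was at 15.1 FPKM in treated and 9.61 FPKM in untreated OE tumours, and at 2.12 FPKM in treated and 6.60 FPKM in untreated KO tumours, a difference of 1.89. F13a1 and Pf4 differed by 1.55 and 1.53. The list of scavenger receptor and resident-like macrophage genes therefore had 2 members past −1 and 3 past 1 of 12. Over all genes, 2.18% were past −1 and 0.516% past 1. Its median was 0.14, but −0.13 with a minimum of 5 FPKM and 0.00 after rescaling to TPM.

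Complement genes, many of them made by macrophages, had a median difference of −1.05 with 8 of 14 past −1, beside 2.18% of all genes. Of the 14 differences 13 were below 0, beside 40.8% of all genes. C3, the central component, was at 37.5 FPKM in treated and 41.5 FPKM in untreated OE tumours, and at 125 FPKM in treated and 44.1 FPKM in untreated KO tumours, a difference of −1.62. Mast cell genes had a median change of 0.09 in OE and 1.19 in KO tumours. Their median difference was −0.98, or −0.62 with a pseudocount of 5. Of the 10 measured, Ms4a2 reached 1 FPKM in the treated KO library alone. Without it the median changes were 0.12 in OE and 1.43 in KO tumours. Mast cell tryptase, summed over the similar genes Tpsab1 and Tpsb2, was at 122 FPKM in treated and 113 FPKM in untreated OE tumours, and at 340 FPKM in treated and 100.3 FPKM in untreated KO tumours, a difference of −1.65.

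Chemokines for monocytes split within a gene family. Ccl8, a ligand of monocyte and T cell receptors, was at 189 FPKM in treated and 292 FPKM in untreated OE tumours, and at 986 FPKM in treated and 253 FPKM in untreated KO tumours, a difference of −2.58. Ccl6 was at 208 FPKM in treated and 129 FPKM in untreated OE tumours, and at 105 FPKM in treated and 135 FPKM in untreated KO tumours, a difference of 1.05 that was 0.91 after rescaling to TPM. Ccl2 and Ccl9, both at 0.67, lay on the same side as Ccl6 without reaching the rule. Cxcl13, which attracts B cells, was at 1.43 FPKM in treated and 3.17 FPKM in untreated OE tumours, and at 23.8 FPKM in treated and 6.70 FPKM in untreated KO tumours, a difference of −2.47. Of the inflammatory mediators, Il1b differed by 1.06 and the neutrophil chemokine gene Cxcl2 by 1.51. Cxcl2 was at 0.142 to 2.31 FPKM in the 4 libraries. With a pseudocount of 5 Il1b was at 0.84 and Cxcl2 at 0.50, below the size rule, as was Il1b at 0.96 after rescaling to TPM.

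**Figure D4:**
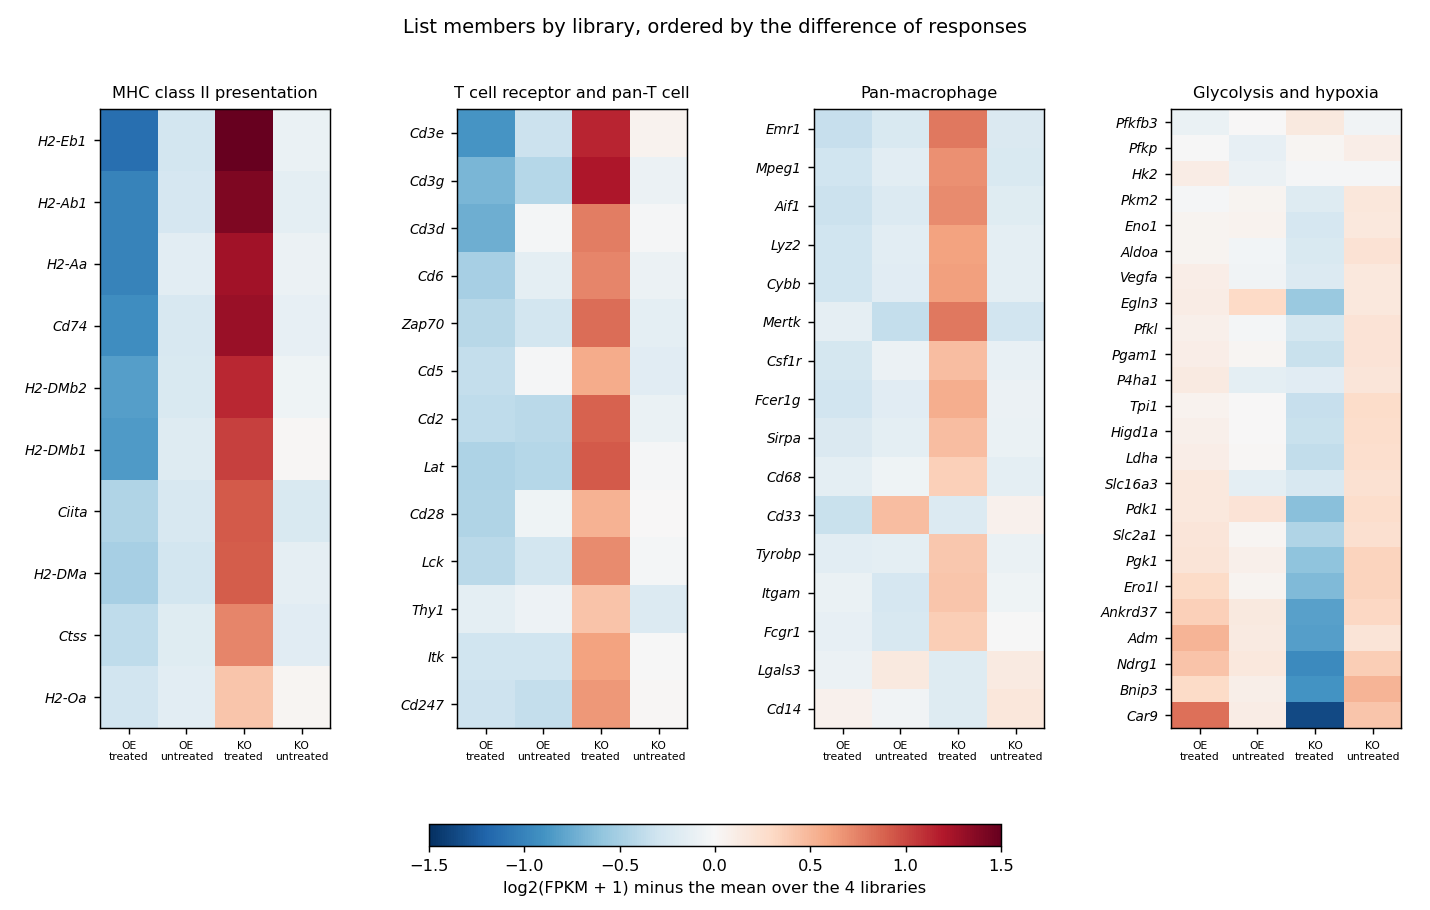
Level of each measured member of 4 lists in each library, as log2(FPKM + 1) minus the mean of the 4 libraries (red higher, blue lower), ordered by the difference of responses from the lowest at the top. In the class II and T cell lists the treated KO column is the highest and the treated OE column among the lowest, and in the glycolysis and hypoxia list the treated KO column is the lowest for most genes.

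Genes of glycolysis and the hypoxia response, which cells use when oxygen is short, were lower with anti-PD-1 in KO tumours and slightly higher in OE tumours. The median change was 0.12 in OE and −0.61 in KO tumours, and the median difference was 0.67. Of 24 members, 7 were past 1, beside 0.516% of all genes. A change above 0 in OE and below 0 in KO tumours was measured in 19 members, beside 27.4% of all genes. Car9, a cell-surface carbonic anhydrase of hypoxic cells, was at 25.7 FPKM in treated and 15.3 FPKM in untreated OE tumours, and at 4.89 FPKM in treated and 19.0 FPKM in untreated KO tumours. The treated KO tumour was the lowest and the treated OE tumour the highest, and the difference was 2.47. Bnip3, a mitophagy receptor gene, was at 81.5 FPKM in treated and 70.6 FPKM in untreated OE tumours, and at 35.2 FPKM in treated and 95.2 FPKM in untreated KO tumours, a difference of 1.61. Ndrg1 differed by 1.60 and Adm, which encodes adrenomedullin, by 1.39, or 0.63 with a pseudocount of 5. Hmox1, a heme-degrading enzyme outside this list, was at 106 FPKM in treated and 58.8 FPKM in untreated OE tumours. In KO tumours Hmox1 was at 33.3 FPKM with and 78.5 FPKM without treatment, a difference of 2.06. The heme and iron handling list that holds it did not follow it. Of its 12 differences, 6 were below and 6 above 0, with 1 past −1, 1 past 1 and a median of 0.01. The cytosolic ribosomal protein genes were above 0 in all 30 measured, beside 59.2% of all genes. Their median was 0.53 with 0 past the rule, since their median change was 0.00 in OE and −0.54 in KO tumours.

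The core of the hypoxia response element, the letters ACGTG on either strand, was present in 13 of 21 glycolysis and hypoxia windows in the promoter table (61.9%) and in 25.9% of all windows. Among the genes past the size rule it was present in 25.6% of the higher and 13.7% of the lower genes with an entry. The windows of Car9 (chr4:43506776-43507075, plus strand) and Bnip3 (chr7:138909457-138909756, minus strand) are shown because these genes had the highest differences in the list. ACGTG, or its reverse complement, is in capitals.
Car9: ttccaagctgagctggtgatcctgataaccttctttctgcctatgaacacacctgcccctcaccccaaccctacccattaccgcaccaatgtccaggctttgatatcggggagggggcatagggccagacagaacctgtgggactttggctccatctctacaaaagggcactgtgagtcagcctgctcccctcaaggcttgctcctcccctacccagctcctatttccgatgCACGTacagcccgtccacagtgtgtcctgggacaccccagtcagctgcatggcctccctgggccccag
Bnip3: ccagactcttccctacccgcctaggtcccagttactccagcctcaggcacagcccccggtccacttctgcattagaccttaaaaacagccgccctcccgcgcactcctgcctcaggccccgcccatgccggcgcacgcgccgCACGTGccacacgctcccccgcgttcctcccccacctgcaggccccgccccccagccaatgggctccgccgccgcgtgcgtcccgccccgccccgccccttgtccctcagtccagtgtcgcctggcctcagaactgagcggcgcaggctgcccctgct
The Car9 match began at −18 from the gene start. In Bnip3 the matches at −108 and −107 are the 2 strands of a single palindrome and overlap.

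Among the 15 genes up in OE and down in KO tumours, Serpinb2, which inhibits plasminogen activators, was at 6.21 FPKM in treated and 1.87 FPKM in untreated OE tumours, and at 0.640 FPKM in treated and 3.40 FPKM in untreated KO tumours, a difference of 2.75. It rose in OE and fell in KO tumours by at least 1, the only gene of 11813 with that pair of changes. Mmp12, macrophage elastase, was at 6.83 FPKM in treated and 3.93 FPKM in untreated OE tumours. In KO tumours Mmp12 was at 1.56 FPKM with and 5.72 FPKM without treatment, a difference of 2.06. The list of matrix metalloproteinases and their inhibitors did not follow it. Mmp12 and Mmp13 were the 2 of its 11 measured genes past 1, beside 0.516% of all genes. Of the 11 differences 6 were below 0, and the list median was −0.13. With a pseudocount of 5, Mmp13 was at 0.62.

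Few genes changed in the OE line alone. Fcrls, a gene of the Fc receptor-like family, was at 6.55 FPKM in treated and 2.65 FPKM in untreated OE tumours, and at 1.13 FPKM in treated and 1.72 FPKM in untreated KO tumours, a difference of 1.40. Ifitm6 differed by 1.36, and Ccl6 belonged to the same class. Cp, which encodes ceruloplasmin, was at 7.99 FPKM in treated and 14.2 FPKM in untreated OE tumours. In KO tumours Cp was at 20.1 FPKM with and 14.1 FPKM without treatment, a difference of −1.23. Its changes were −0.76 in OE and 0.48 in KO tumours, so it was flat in KO tumours only by falling just under the step. With a pseudocount of 5, Fcrls was at 0.73, Ifitm6 at 0.78 and Cp at −0.95, short of the rule. Rps27 had the lowest value of this class, at −2.33, but its model overlaps Gm9846, so its FPKM is uncertain.

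By list median, markers of skeletal muscle and epidermis were also higher with anti-PD-1 in KO tumours. In OE tumours the muscle markers were lower and the epidermis markers little changed. The muscle list had a summed FPKM of 77.5 in treated and 194 in untreated OE tumours, and of 626 in treated and 237 in untreated KO tumours, with 0 members at 0 in any library. Its median change was −1.32 in OE and 1.49 in KO tumours, and its median difference was −2.88. Of 21 measured genes, 19 were past −1, beside 2.18% of all genes. The median was −4.46 with a pseudocount of 0.1 and −1.61 with 5. Mb and Ryr1 reached 1 FPKM in the treated KO library alone; of the other 19 genes, 18 were past −1, with a median of −2.98. Acta1, skeletal muscle actin, was at 3.27 FPKM in treated and 39.0 FPKM in untreated OE tumours, and at 143 FPKM in treated and 55.3 FPKM in untreated KO tumours, a difference of −4.58. The epidermis list had 15 of 16 measured genes past −1, but 14 of the 16 reached 1 FPKM through the treated KO library alone, so that a difference followed from the minimum. Its median change was 0.00 in OE and 2.28 in KO tumours. Krt10, a keratin of upper skin layers, was at 0.458 FPKM in treated and 0.649 FPKM in untreated OE tumours, and at 31.2 FPKM in treated and 1.44 FPKM in untreated KO tumours. The part of these tissues in the differences of other genes was not tested. The epidermis, muscle and adipocyte lists held 36 of the lower and 0 of the higher genes, so dropping them left 221 and 61. That drops listed members only, and 159 of the 257 lower genes were in no list, so it cannot tell which others came from these tissues.

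Opposite changes of at least 1 in both lines were found for 16 genes (0.135%), of which 15 were down in OE and up in KO tumours. The muscle list held 11 of the 16. The others besides Serpinb2 were Car3, a carbonic anhydrase of muscle and fat, at −3.78, the imprinted RNA H19 at −3.30, Oaz1-ps at −4.85 and Gvin1 at −3.39. Oaz1-ps overlaps Oaz1, and summed with it the difference was 0.21. Gvin1 and Gm4070 are overlapping models with the same start on chromosome 7. Summed, the pair was at 12.9 FPKM in treated and 11.8 FPKM in untreated OE tumours. In KO tumours the sum was 24.7 FPKM with and 11.98 FPKM without treatment, a difference of −0.86. Gm4070 alone was at 2.76, the highest difference of all genes, and was up in OE and down in KO tumours.

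**Figure D5:**
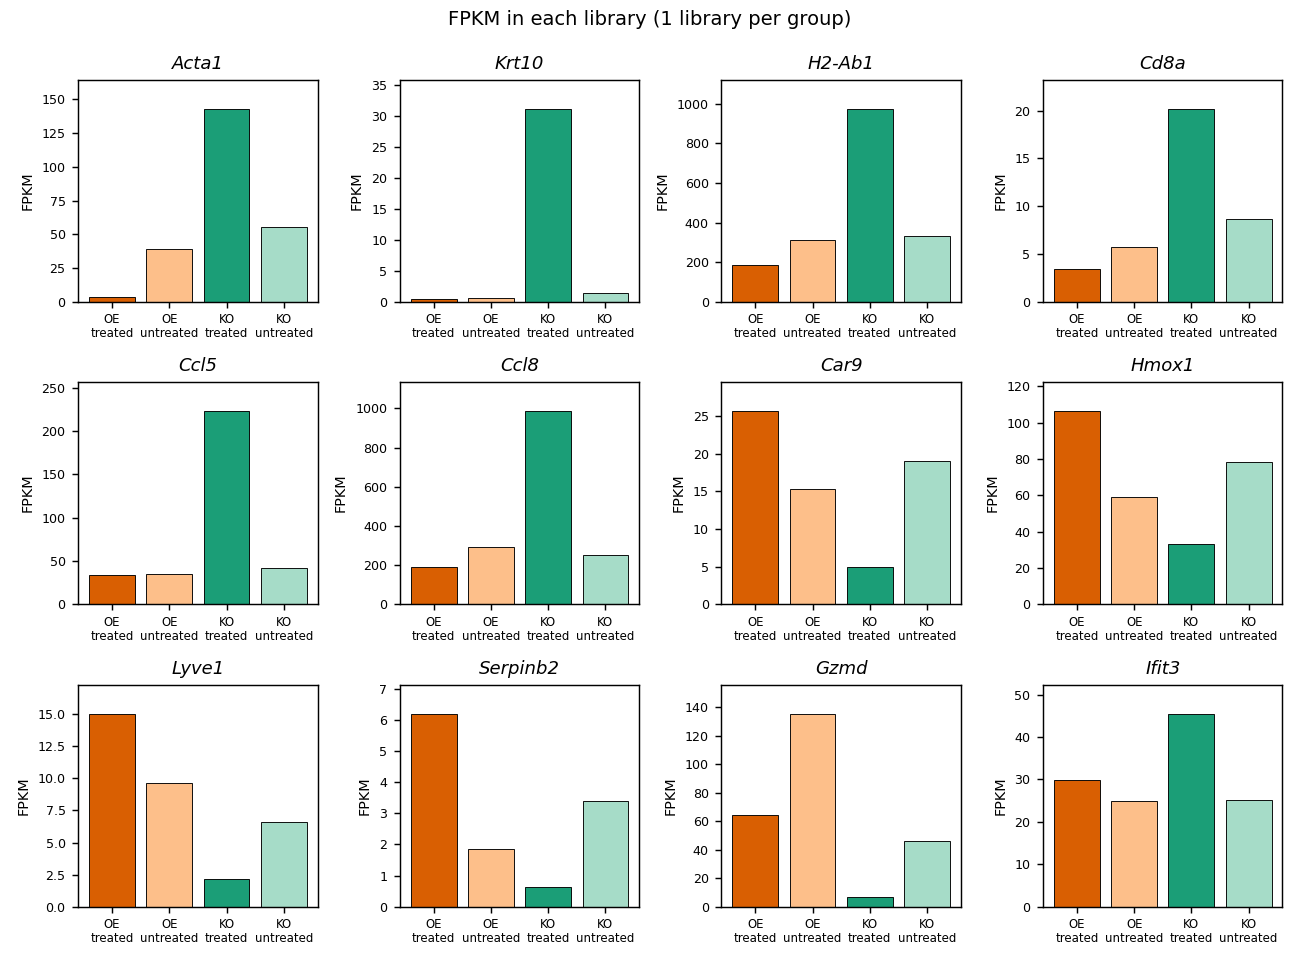
FPKM of 12 genes in each of the 4 libraries, with 1 bar per library and the vertical axis from 0. Acta1, H2-Ab1, Cd8a, Ccl5 and Ccl8 are highest in the treated KO tumour, Car9, Hmox1, Lyve1 and Serpinb2 are highest in the treated OE tumour, and Gzmd is lower with treatment in both lines.

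Several of the differing genes lay next to each other. Counting genes with starts at most 100 kb apart in the same direction, 13 runs of at least 3 were found in mm10. The class II genes H2-Ab1, H2-Aa, H2-Eb1 and H2-Ea-ps formed a run on chromosome 17 from 34263227 to 34344645, covering 4 of 4 measured genes there. Granzymes C to G formed a run on chromosome 14 from 56117619 to 56234656, covering 5 of 5. Cd3g, Cd3d and Cd3e stood together on chromosome 9 from 44969572 to 45009590, and the complement protease genes C1ra, C1s and C1rb with Gm5077 on chromosome 6 from 124512621 to 124636085. Other runs held keratin genes on chromosomes 11 and 15 and fast myosin genes on chromosome 11. The keratin genes of these runs reached 1 FPKM in the treated KO library alone, so their KO change was above 0 by that choice.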

How the data were processed

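The authors deposited a table of FPKM values with RefSeq gene models, 1 column for each of the 4 libraries. Per the labels' protocols, a PureLink kit was used for total RNA and a SureSelect strand-specific kit for the libraries. CASAVA 1.8.2, TopHat2 2.1.0 and Cufflinks 2.2.1 with mm10 were used per the submitters' processing notes, and neither their order nor settings were given in the sources used here. FPKM holds no fragment totals, so no counting interval was computed, and fragments of near-identical or overlapping models can be divided between them. FPKM is also relative, so a few abundant transcripts lower all other values of a library.

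Differences were taken on log2(FPKM + 1), a scale that understates changes of low genes, with FPKM of at least 1 in any library. Where a symbol had several rows the one with the highest mean was kept, and 825 rows of short RNAs were left out. With 1 library per group no test was possible, and counts rest on a size of 1 for the difference and a step of 0.5 within a line. The members, the 50 gene lists (640 genes, 6 entries unmatched) and the genes named were chosen with earlier results of these data known. Named genes were those of the PD-1 and IL-34 axes, the 15 highest and 15 lowest differences with FPKM of at least 5, the 6 largest of each class, up to 4 of each list, genes opposite by 1 in both lines, and runs of neighbours. The counting was tested on simulated data. Python 3.11.15, numpy 2.4.6, pandas 2.3.3 and matplotlib 3.10.9 were used.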

Additional observations from a re-analysis of the deposited data

Results flagged for a closer look

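The OE and KO lines changed in opposite directions by at least 1 in 16 genes. None of these differences could be tested, since each group had 1 library. Genes of skeletal muscle made up 11 of them, down in OE and up in KO tumours: Acta1 at −4.58, Myl1 at −4.37, Tnnc2 at −3.94, Ckm at −3.94, Atp2a1 at −3.66, Tnnt3 at −3.63, Mylpf at −3.58, Myh4 at −3.55, Myh1 at −3.18, Mybpc2 at −2.88 and Actn3 at −2.74. Car3, at −3.78, and H19, at −3.30, had the same pair of directions.

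Oaz1-ps, at −4.85, and Gvin1, at −3.39, are uncertain, because the value of each depends on how fragments were divided with Oaz1 and Gm4070. Serpinb2, at 2.75, was the gene up in OE and down in KO tumours.

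Among the lists, MHC class II presentation, with a median difference of −1.73, and skeletal muscle, with −2.88, had median changes of at least 0.5 in opposite directions.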

How the results depend on the processing

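A pseudocount of 0.1 gave 127 higher and 462 lower genes and 56 opposite by 1 in both lines, and a pseudocount of 5 gave 20, 90 and 8. By class, a pseudocount of 0.1 gave 150 genes down in OE and up in KO, 42 up in OE and down in KO, 277 flat in OE and up in KO, 62 flat in OE and down in KO, 15 up in OE alone and 25 down in OE alone. In the same order, a pseudocount of 5 gave 23, 5, 65, 11, 3 and 2. It also left 2 lists with a median of at least 0.5, against 4. A minimum of 5 FPKM gave 160 lower genes, and 44, 112, 22, 3 and 3 in the classes other than up in OE and down in KO. Rescaling to TPM gave 457 lower genes and 27 opposite in both lines, with 110 down in OE and up in KO, 325 flat in OE and up in KO, 10 up in OE alone and 18 down in OE alone. TPM moved the median difference of all genes to −0.07, from 0.06, and the higher share of calls to 12.95%, from 19.2%. A step of 0.25 gave class counts of 140, 37, 107, 17, 1 and 3, so that opposite changes outnumbered changes in 1 line only. A step of 1 gave 15 genes down in OE and up in KO and 1 up in OE and down in KO. Without the epidermis, muscle and adipocyte lists, 4 genes were opposite in both lines. The colon epithelium median was −0.84 with a mean FPKM of at least 1, against 0.56, with few members measured. Of the 50 list medians, 14 changed sign under at least 1 alternative or when the mean was taken, among them regulatory T cells, at 0.17 with a minimum of 5 FPKM against −0.47, and resident-like macrophages, at −0.13 with that minimum against 0.14. The skeletal muscle median was −4.46 with a pseudocount of 0.1, −1.61 with 5 and −3.65 after rescaling to TPM, against −2.88. Of 236 named genes, 57 no longer reached the size rule with a pseudocount of 5 and 3 after rescaling to TPM, and none changed sign past it. The cause of these moves was not tested.

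No FPKM minimum, a mean minimum of 1, library-median scaling, every table row and summed copies, an alternative added after the data were seen, left the counts of higher and lower genes within 1.5 times. The limit on promoter windows and the list counts without members kept through the treated KO library were also chosen after the data were seen. Leaving out a library was not run, since the difference cannot then be formed. No paired analysis was possible because each group had 1 library.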

Other observations

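Genes of the liver X receptor and of cholesterol efflux from macrophages were described from a list of 12 written after the values were seen, so their counts support nothing further. Of 11 measured, 7 had a difference past −1 and 0 past 1, among the 7 Apoc1, which reached 1 FPKM in the treated KO library alone, with a median of −1.09, a median change of −0.20 in OE and 1.07 in KO tumours. Nr1h3, which encodes liver X receptor α, was at 2.46 FPKM in treated and 3.76 FPKM in untreated OE tumours, and at 8.14 FPKM in treated and 3.36 FPKM in untreated KO tumours, a difference of −1.53. Abcg1, a cholesterol exporter, was at 5.84 FPKM in treated and 7.52 FPKM in untreated OE tumours, and at 17.5 FPKM in treated and 6.98 FPKM in untreated KO tumours, a difference of −1.53. Pltp, a phospholipid transfer protein gene, was at 42.4 FPKM in treated and 49.3 FPKM in untreated OE tumours, and at 107 FPKM in treated and 44.1 FPKM in untreated KO tumours, a difference of −1.47. The treated KO tumour was the highest of the 4 for each of these genes, and the other 3 libraries lay closer to each other. Srebf1 and Scd2, lipid synthesis genes under the same receptor, differed by −0.36 and −0.19.

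Collagen genes had median changes of 0.25 in OE and 0.40 in KO tumours and 0 of 15 differences past the size rule. The sign of the change was shared by both lines in 11 of them, and 4 were above 0 in OE and below 0 in KO tumours. Col1a1, picked after its values were seen, was at 104 FPKM in treated and 62.2 FPKM in untreated OE tumours, and at 127 FPKM in treated and 59.6 FPKM in untreated KO tumours.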
